A study of Mus musculus with 5 samples.

Results

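Genes of B cell help and of the follicular helper T (Tfh) cell programme were read in CD4+ T cells from the colon of mice with transfer colitis. The 8 genes, Icos, Cd40lg, Sh2d1a, Cxcr5, Bcl6, Maf, Ascl2 and Tox2, were taken by name and not by their values. They are 8 of the 18193 genes measured, and every probe set that carries 1 of these symbols alone was used, 19 of the 34945 probe sets with a single symbol. Signals are linear and scaled so that the median of each array is 1. For each gene the probe set with the highest mean over the 5 arrays stands first, and the others are given beside it.

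RNA was hybridised from 2 samples of CXCR6 Hi cells, 2 of CXCR6 Lo cells and 1 of CD45Rb Hi naive cells. The CXCR6 Hi and CXCR6 Lo cells were CD3+CD4+ T cells sorted from the colonic lamina propria (LP) after CD4+CD45RBhigh T cells of BALB/c mice had been transferred into Rag1-/- mice. The recipients make no T or B cells of their own, so the LP arrays hold descendants of transferred cells in a host without B cells, which limits them as a model of B cell help. Expression of CXCR6, the receptor of the chemokine CXCL16, was detected in this study with a CXCL16-Fc fusion protein. The naive cells were CD3+CD4+CD45Rb Hi cells of healthy BALB/c mice and had not been transferred. Their tissue is the spleen in the methods and in 1 label, while another label names the lamina propria. The arrays of a subset are labelled biological replicates, but how many mice gave each sample is not stated, so each p-value takes in the spread among these 5 arrays and no more.

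Tfh cells are CD4+ T cells that enter the B cell follicle along the chemokine CXCL13, which their receptor CXCR5 senses, and there help B cells through cytokines and through the surface molecules CD40L and ICOS. The transcription factor BCL6 is needed for this programme, and BLIMP-1, encoded by Prdm1, opposes it. SAP, encoded by Sh2d1a, is an adaptor of the SLAM receptors that holds T and B cells together for long enough for help to be given. In the colon and in transfer colitis, ICOS and CD40L are also known as costimulatory molecules of effector T cells.

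Among these genes Icos was 9.58-fold higher in LP T cells than in naive T cells, whereas Sh2d1a was lower, and the LP subsets differed most in Cxcr5, which read 0.749 and 0.842 in CXCR6 Hi cells against 5.05 and 7.34 in CXCR6 Lo cells. Of the 8 genes, 1 rose and 1 fell in LP T cells against naive T cells in limma's fit across all genes (Benjamini-Hochberg adjusted p under 0.05), where 15.1% of all genes rose and 18.8% fell, a share of the 8 (12.5% each way) near the background. Against naive T cells, 1 of the 8 rose and 2 fell in CXCR6 Hi cells (13.2% and 15.3% of all genes), and 1 rose and 0 fell in CXCR6 Lo cells (12.8% and 16.7%), where 1 was lower at an unadjusted p under 0.05. All LP arrays lay above the naive array for 3 of the 8, Bcl6, Maf and Icos (35% of all genes), and below it for 4, Sh2d1a, Cd40lg, Ascl2 and Tox2 (40.9%).

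Between CXCR6 Hi and CXCR6 Lo cells 0 of the 8 passed in limma's fit, as did 0 of all genes (0%), and the methods' t-test passed 1 gene of all and none of the 8. At an unadjusted p under 0.05, 1 of the 8 was lower in CXCR6 Hi cells, Cxcr5, against 3.18% of all genes. The median log2 difference of the 8 between LP and naive T cells was -0.72, beside -0.14 over all genes, and between the subsets it was -0.28, beside 0.08. The former lies between Cxcr5 (-0.75) and Tox2 (-0.69), neither of which passed, and Tox2 was 0.36 with the mean of its probe sets. It therefore does not show that the 8 fell as a group.

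**Figure D1:**
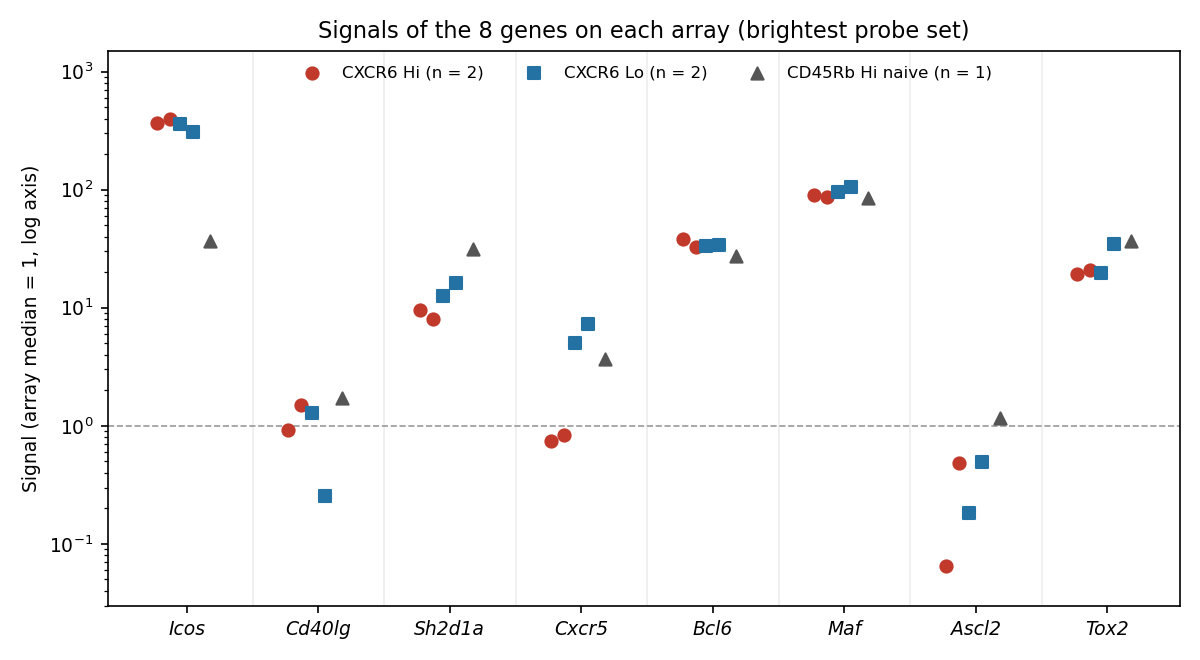
Signal of each gene on the 5 arrays, on a log axis, for its brightest probe set. Each point is 1 array (red circles, CXCR6 Hi, n = 2, blue squares, CXCR6 Lo, n = 2, grey triangle, naive, n = 1), and the dashed line is the array median. Icos lies between 306.6 and 394.9 on the LP arrays and at 36.95 on the naive array, while Cxcr5 lies under 1 on both CXCR6 Hi arrays only.

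Icos, on chromosome 1 (chr1:60960773-61000322, GRCm38.p6), encodes a costimulatory receptor of the CD28 family that binds ICOS ligand on B cells and other antigen-presenting cells. Its signals were 364.1 and 394.9 in CXCR6 Hi cells, 356.5 and 306.6 in CXCR6 Lo cells and 36.95 in naive T cells. Every LP array lay above the naive array, and Icos rose by 3.26 on the log2 scale in LP T cells (SE 0.26, limma's adjusted p = 0.012, 95% interval 2.53 to 3.995). Each subset taken alone was higher too, by 3.36 for CXCR6 Hi cells (adjusted p = 0.016) and by 3.16 for CXCR6 Lo cells (adjusted p = 0.0159), in comparisons that share the same naive array. Both further Icos probe sets rose, from 13.0 in naive T cells to between 214.3 and 298.9, and from 5.46 to between 55.3 and 112.3 (log2 differences 4.26 and 3.99, adjusted p = 0.015 and 0.0154 over all probe sets). The smallest LP signal of each probe set exceeded its naive signal by several fold.

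Both CXCR6 Hi arrays were above both CXCR6 Lo arrays in Icos, but the log2 difference was 0.20 (limma's adjusted p = 0.858, 95% interval -0.46 to 0.85). A p above the threshold does not show that the subsets express it alike, and the interval covers both directions. The call against naive T cells was lost without CXCR6 Lo replicate 1 or without CXCR6 Lo replicate 2 (adjusted p = 0.0509 and 0.0511), where 0 genes passed, and the log2 difference was then 3.21 and 3.315. For either subset alone, 0 genes passed whichever 1 LP array was left out. In such bulk RNA fewer cells of a type and less RNA per cell cannot be told apart, here and below. On the same arrays Cd28, which encodes the related costimulatory receptor, was at 214.8 to 230.2 in LP T cells and 33.5 in naive T cells.

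Cd40lg, on the X chromosome (chrX:57212143-57224042), encodes the ligand by which helper T cells engage CD40 on B cells. Its only probe set was dim, at 0.928 and 1.499 in CXCR6 Hi cells, 1.28 and 0.254 in CXCR6 Lo cells and 1.73 in naive T cells. The LP arrays all lay below the naive array, but they spread by several fold among themselves and the subsets overlapped. Between LP and naive T cells the log2 difference was -1.08 (limma's adjusted p = 0.464, 95% interval -4.04 to 1.89). Between the subsets it was 1.05 (adjusted p = 0.827, 95% interval -1.60 to 3.70), and -0.12 without CXCR6 Lo replicate 2. At this brightness a difference of several fold was not detectable in either comparison.

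Sh2d1a, also on the X chromosome (chrX:42502565-42522097), encodes SAP, which links SLAM receptors to the kinase FYN. It read 9.63 and 8.07 in CXCR6 Hi cells, 12.7 and 16.2 in CXCR6 Lo cells and 31.5 in naive T cells. The 3 groups did not overlap, with CXCR6 Hi cells lowest and naive T cells highest. Sh2d1a fell by 1.49 on the log2 scale in LP T cells (SE 0.30, limma's adjusted p = 0.0344) and by 1.84 in CXCR6 Hi cells alone (adjusted p = 0.0324). In CXCR6 Lo cells the log2 difference from naive T cells was -1.14 and missed the threshold (adjusted p = 0.0752). Between the subsets it was -0.70 (adjusted p = 0.761, 95% interval -1.46 to 0.06). Of the neighbours in this order, neither pair passed the test.

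The fall of Sh2d1a in LP T cells was lost when any 1 of the 4 LP arrays was left out (adjusted p = 0.0746 to 0.0897) and with quantile normalization (adjusted p = 0.109). Transcripts that tell the sexes apart differed between the same groups: Xist, expressed from the inactive X chromosome, read 180.9 to 214.9 across the LP arrays and 0.864 in naive T cells, while the Y-linked gene Eif2s3y read 1.59 to 3.41 and 53.5. Sex and tissue of origin therefore cannot be told apart in any comparison with naive T cells. This holds for the X-linked Sh2d1a and Cd40lg and for every other gene here, Icos and Cxcr5 included. Among the 4 LP arrays both transcripts lay close together.

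Cxcr5, on chromosome 9 (chr9:44511787-44526444), encodes the receptor that draws T and B cells to follicles. Its only probe set read 0.749 and 0.842 in CXCR6 Hi cells, 5.05 and 7.34 in CXCR6 Lo cells and 3.695 in naive T cells. Both CXCR6 Hi arrays lay below the naive array and both CXCR6 Lo arrays above it, an order found in 1.22% of all genes and in no other of the 8. Between the subsets the log2 difference was -2.94 (SE 0.30, 95% interval -3.79 to -2.09), the largest of the 8 in size, with an unadjusted p of 0.000863 and an adjusted p of 0.451 in limma's fit. The difference therefore exceeded the spread within each pair of arrays but did not pass the correction over all genes. Both CXCR6 Hi signals lay under the array median, so its size depends on how dim signals are treated. It was -1.98 with log2 of the signal plus 1 and -2.61 with signals under 1 set to 1.

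Against naive T cells, Cxcr5 fell by 2.22 on the log2 scale in CXCR6 Hi cells (SE 0.36, limma's adjusted p = 0.0288), while in CXCR6 Lo cells the difference was 0.72 (adjusted p = 0.21, 95% interval -0.32 to 1.76). Averaged over both subsets it was -0.75 (adjusted p = 0.162). The fall in CXCR6 Hi cells was lost when any 1 LP array was left out (adjusted p = 0.0611 to 0.0986) and, barely, with quantile normalization (adjusted p = 0.0501). B cells also express Cxcr5. The summed signal of 9 B cell markers was 5.58 to 6.50 across the LP arrays and 65.3 in naive T cells. Of the 9, 8 lay below the naive value on all LP arrays (40.9% of all genes). Pax5 alone lay above it, dim at 0.673 to 1.22 against 0.025 (log2 difference 5.08, limma's adjusted p = 0.0123). The part of B cell transcripts in the naive value of Cxcr5 was not tested. Within the LP arrays the same sums were 5.58 and 5.75 for CXCR6 Hi and 5.95 and 6.50 for CXCR6 Lo cells. Cd79a and Cd79b, which encode the B cell receptor's signalling chains, were under 1 on all 4, while Cd22 read 1.57 to 2.01. Of the 9 markers, 8 overlapped between the subsets. Only Ms4a1 did not, at 0.006 and 0.092 in CXCR6 Hi cells and 0.197 and 0.187 in CXCR6 Lo cells, in the direction of Cxcr5. The part of B cell transcripts in the subset difference of Cxcr5 was not tested.

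Of the 8 genes, 4 had CXCR6 Hi and CXCR6 Lo arrays that did not overlap, Cxcr5, Maf and Sh2d1a lower and Icos higher in CXCR6 Hi cells. The same held for 39.5% of all genes, 14.3% lower and 25.1% higher, so the count of 4 is close to the background. The gene whose pattern over the 5 arrays was most like that of Cxcr5 was Eomes, which encodes a T-box factor of cytotoxic and memory lymphocytes, among 9956 genes with a mean log2 signal above 0. The Euclidean distance between both centred log2 profiles was 1.04, against 3.04 for the length of the Cxcr5 profile itself. Eomes read 1.38 and 2.32 in CXCR6 Hi cells, 13.0 and 36.5 in CXCR6 Lo cells and 11.0 in naive T cells. Rasgef1a came next, at a distance of 1.42. The likeness is a description over 5 arrays.

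Bcl6, on chromosome 16 (chr16:23965050-23988866), encodes the repressor on which Tfh cells depend. Its main probe set was nearly level, at 38.2 and 32.8 in CXCR6 Hi cells, 33.1 and 34.3 in CXCR6 Lo cells and 27.4 in naive T cells. All LP arrays lay above the naive array and the subsets overlapped. Neither difference passed limma's fit, at 0.34 on the log2 scale between LP and naive T cells (adjusted p = 0.357, 95% interval -0.39 to 1.06) and 0.07 between the subsets (adjusted p = 0.948, 95% interval -0.58 to 0.72), where quantile normalization turned the sign to -0.14. The same normalization moved the difference between LP and naive T cells to 0.92 (adjusted p = 0.0739). A second, dim probe set read 1.64 and 2.00 in CXCR6 Hi cells, 1.13 and 0.747 in CXCR6 Lo cells and 1.499 in naive T cells; between the subsets the log2 difference was 0.98 (unadjusted p = 0.0454 and adjusted p = 0.762 in limma's fit over all probe sets).

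BCL6 and the STAT factors bind closely related palindromes, and BCL6 is known to bind its own gene. Both Bcl6 start windows of the RefSeq table (GRCm38.p6, 250 bases before a start, minus strand) are shown because they hold such letters in the gene of the central Tfh factor. Capitals mark TTCNNNGAA, the shared STAT and BCL6 pattern, and GGAAAA, the core of NFAT sites, searched on both strands. The first window, chr16:23988853-23989102, lies before the start at the gene's outer end, and the second, chr16:23981284-23981533, before a start inside the gene.
Bcl6 outer start: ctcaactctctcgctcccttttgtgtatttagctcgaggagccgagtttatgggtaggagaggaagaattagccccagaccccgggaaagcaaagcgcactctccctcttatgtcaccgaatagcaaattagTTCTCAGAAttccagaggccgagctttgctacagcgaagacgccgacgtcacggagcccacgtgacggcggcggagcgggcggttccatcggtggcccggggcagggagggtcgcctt
Bcl6 inner start: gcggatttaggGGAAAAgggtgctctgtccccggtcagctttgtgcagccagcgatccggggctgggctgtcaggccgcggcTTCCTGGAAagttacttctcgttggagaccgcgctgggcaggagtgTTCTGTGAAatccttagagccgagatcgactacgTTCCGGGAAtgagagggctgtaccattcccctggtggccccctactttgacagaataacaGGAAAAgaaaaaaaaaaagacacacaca
The inner window holds 3 matches to TTCNNNGAA, TTCCTGGAA, TTCTGTGAA and TTCCGGGAA, and 2 to GGAAAA. The outer window holds 1 match to TTCNNNGAA, TTCTCAGAA. Among all 32851 windows of this length, 7.02% hold TTCNNNGAA and 20.4% hold GGAAAA. Of the other genes, windows of Ascl2 and Tox2 were searched too, and none held TTCNNNGAA. GGAAAA was also found in Tox2 windows, as TTTTCC on the other strand. The E-box pattern CANNTG, held by 66.2% of all windows and not marked above, was found in windows of Bcl6, Ascl2 and Tox2. The AP-1 pattern TGANTCA and the MAF half-site TGCTGA were searched as well and found in none of these windows. A match describes the letters and does not show that a factor binds there.

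Maf, on chromosome 8 (chr8:115703253-115706894), encodes c-MAF, a factor of interleukin production in Tfh and other helper cells. Its brightest probe set was as level as that of Bcl6, at 90.4 and 86.1 in CXCR6 Hi cells, 94.98 and 105.5 in CXCR6 Lo cells and 85.4 in naive T cells. The LP arrays all lay above the naive array, by little, and the log2 difference of 0.14 did not pass (limma's adjusted p = 0.691, 95% interval -0.56 to 0.84) and was -0.09 with quantile normalization. CXCR6 Hi arrays were below CXCR6 Lo arrays without overlap, with a log2 difference of -0.18 (adjusted p = 0.86, 95% interval -0.81 to 0.45).

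The 6 probe sets of Maf disagreed between LP and naive T cells. The second in brightness rose, from 9.54 in naive T cells to between 43.5 and 58.5 (log2 difference 2.35, limma's adjusted p = 0.0199 over all probe sets). A further 3 fell, 1 of them from 17.1 to between 1.84 and 2.51 (log2 difference -3.02, adjusted p = 0.0159), and the mean over all 6 gave -0.79 (adjusted p = 0.103). The dimmest, under 1 on every array, read 0.134 and 0.108 in CXCR6 Hi cells against 0.569 and 0.565 in CXCR6 Lo cells (log2 difference -2.24, unadjusted p = 0.00131, adjusted p = 0.442). Which stretch of the gene each probe set reads is not given in the sources used here, and no direction for Maf against naive T cells can be stated.

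Ascl2, on chromosome 7 (chr7:142966822-142969264), encodes a basic helix-loop-helix factor that raises CXCR5 in early Tfh cells. It was dim on every array, at 0.065 and 0.485 in CXCR6 Hi cells, 0.181 and 0.493 in CXCR6 Lo cells and 1.17 in naive T cells. All LP arrays lay below the naive array in each of its 3 probe sets, of which 2 stayed under 1 on all 5 arrays. The log2 difference of the main probe set, -2.34, did not pass (limma's adjusted p = 0.253, 95% interval -6.24 to 1.56), but the mean of the 3 did (-2.65, adjusted p = 0.0207). With signals under 1 set to 1, the difference passed at a far smaller size, -0.22 (limma's adjusted p = 0.000163). This setting puts all LP arrays at the floor and leaves no spread among them, so that p-value is no evidence of a fall. Ascl2 also marks stem cells of the intestinal crypt, for which Lgr5 and Smoc2 are markers. Smoc2 read 4.82 to 8.56 across the LP arrays and 0.827 in naive T cells, in the opposite direction to Ascl2, and Lgr5 was under 1 on all 5.

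Tox2, on chromosome 2 (chr2:163203058-163324172), encodes an HMG-box factor that BCL6 induces in Tfh cells. Its main probe set read 19.3 and 20.8 in CXCR6 Hi cells, 19.7 and 34.5 in CXCR6 Lo cells and 37.0 in naive T cells. Only CXCR6 Lo replicate 2 came near the naive value, and the subsets overlapped. The log2 difference between LP and naive T cells, -0.69, did not pass (limma's adjusted p = 0.261, 95% interval -1.87 to 0.49), nor did that between the subsets, -0.38 (adjusted p = 0.838, 95% interval -1.43 to 0.68). The second probe set was under 1 on all 5 arrays and lay above the naive value on the LP arrays, with a log2 difference of 1.42 (adjusted p = 0.249 over all probe sets), so the probe sets point in opposite directions.

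**Figure D2:**
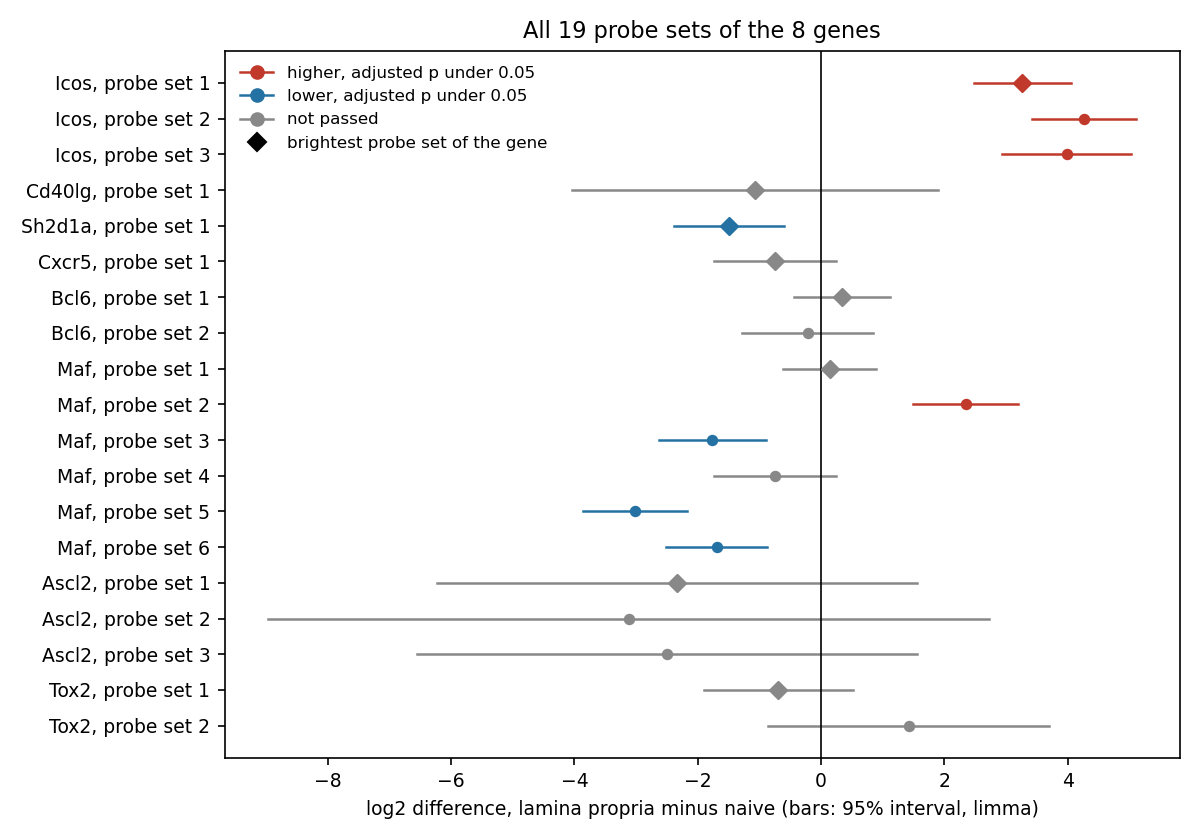
Log2 difference between LP and naive T cells for each of the 19 probe sets, ordered by gene and numbered from bright to dim. Diamonds are the brightest probe set of a gene, circles the others, bars the 95% interval from limma, red and blue a rise or fall at an adjusted p under 0.05 over all probe sets. All 3 Icos probe sets rose, while those of Maf lie on both sides of 0.

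Over the 19 probe sets, 4 rose and 4 fell between LP and naive T cells, 21.1% each, where 13.1% of all probe sets rose and 16.5% fell. The 4 that rose were the 3 of Icos and 1 of Maf, and the 4 that fell were that of Sh2d1a and 3 of Maf. Probe sets of a gene read the same RNA and are not replicates. Between the subsets 0 of the 19 passed limma's fit, as did 0 of all 34945, and 3 of the 19 were at an unadjusted p under 0.05, those of Cxcr5 and 1 each of Bcl6 and Maf, against 6.51% of all probe sets.

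The wider Tfh programme was read from lists of other genes, whose calls share the limit given for Icos, that 0 genes passed without either of the CXCR6 Lo arrays. Among factors that favour Tfh cells, 2 of 9 measured genes rose and 2 fell in LP T cells (15.1% and 18.8% of all genes), and 5 did not pass, with a median log2 difference of -0.94. The number that fell was 6 with the filter on dim genes, the variance trend or log2 of the signal plus 1. Batf, an AP-1 family factor, was among those that rose, by 1.59 (limma's adjusted p = 0.0321). Lef1, a high mobility group factor of naive and early Tfh cells, fell from 99.8 in naive T cells to between 8.80 and 15.0 (log2 difference -3.13, adjusted p = 0.019). Pou2af1, a coactivator best known from B cells, fell from 34.6 to between 0.191 and 2.05 (log2 difference -5.53, adjusted p = 0.0277), in step with the B cell marker sum above. The part of B cell RNA in this fall was not tested. Tox, a relative of Tox2, read 0.463 to 6.61 in LP and 21.2 in naive T cells (log2 difference -3.47, adjusted p = 0.0777).

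Of 12 cytokines, receptors and surface molecules of Tfh cells, 4 rose in LP T cells and 2 fell, where 15.1% and 18.8% of all genes did, with a median of 0.61 beside -0.14 over all genes. Tnfrsf4, encoding the costimulatory receptor OX40, rose from 14.3 to between 72.1 and 141.5 (log2 difference 2.94, limma's adjusted p = 0.0151). Cd28 rose by 2.73 (adjusted p = 0.0124) and Gpr183, the oxysterol receptor that guides cells to the follicle's edge, by 2.27 (adjusted p = 0.0207). The receptor chain Il6ra, by which interleukin 6 induces Bcl6, fell from 30.4 to between 0.423 and 1.06 (log2 difference -5.47, adjusted p = 0.0156). Of the cytokines, Il21 read 2.32 to 6.48 in LP and 6.32 in naive T cells (log2 difference -0.53, adjusted p = 0.378). Pdcd1, encoding the receptor PD-1 of which Tfh cells carry much, read 8.53 and 16.3 in CXCR6 Hi cells, 18.7 and 21.1 in CXCR6 Lo cells and 9.23 in naive T cells (log2 difference from naive T cells 0.73, adjusted p = 0.283). These last genes and Il4 were chosen for their role after their values had been seen.

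SLAM family receptors and partners of SAP moved both ways in LP T cells, with 1 of 7 higher, 2 lower and 4 not passed and a median of -0.87. Against the same 15.1% and 18.8% of all genes no balance can be read from 7, and quantile normalization turned it to 3 higher and 1 lower. Fyn, the kinase that SAP recruits, rose by 1.49 (limma's adjusted p = 0.0249). Ly9 fell from 27.5 to between 1.09 and 2.28 (log2 difference -4.14, adjusted p = 0.0182) and Cd244a by 3.19 (adjusted p = 0.0392), while Slamf1 was 1.86 higher and did not pass (adjusted p = 0.0628). Genes that oppose the Tfh programme moved both ways as well, 4 of 15 higher, 3 lower and 8 not passed, with a median of -0.38, beside 15.1% and 18.8% of all genes. The counts were 5 and 6 with the filter or the variance trend and 0 and 2 with the replicate numbers as a block. Stat5a, which carries the interleukin 2 signal that blocks Tfh cells, fell from 63.8 to between 5.15 and 6.30 (log2 difference -3.53, adjusted p = 0.0119). Foxp1 fell by 2.90 (adjusted p = 0.0218) and Il2rb by 2.14 (adjusted p = 0.0379), whereas Il7r, the receptor for interleukin 7, rose by 1.46 (adjusted p = 0.0262).

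**Figure D3:**
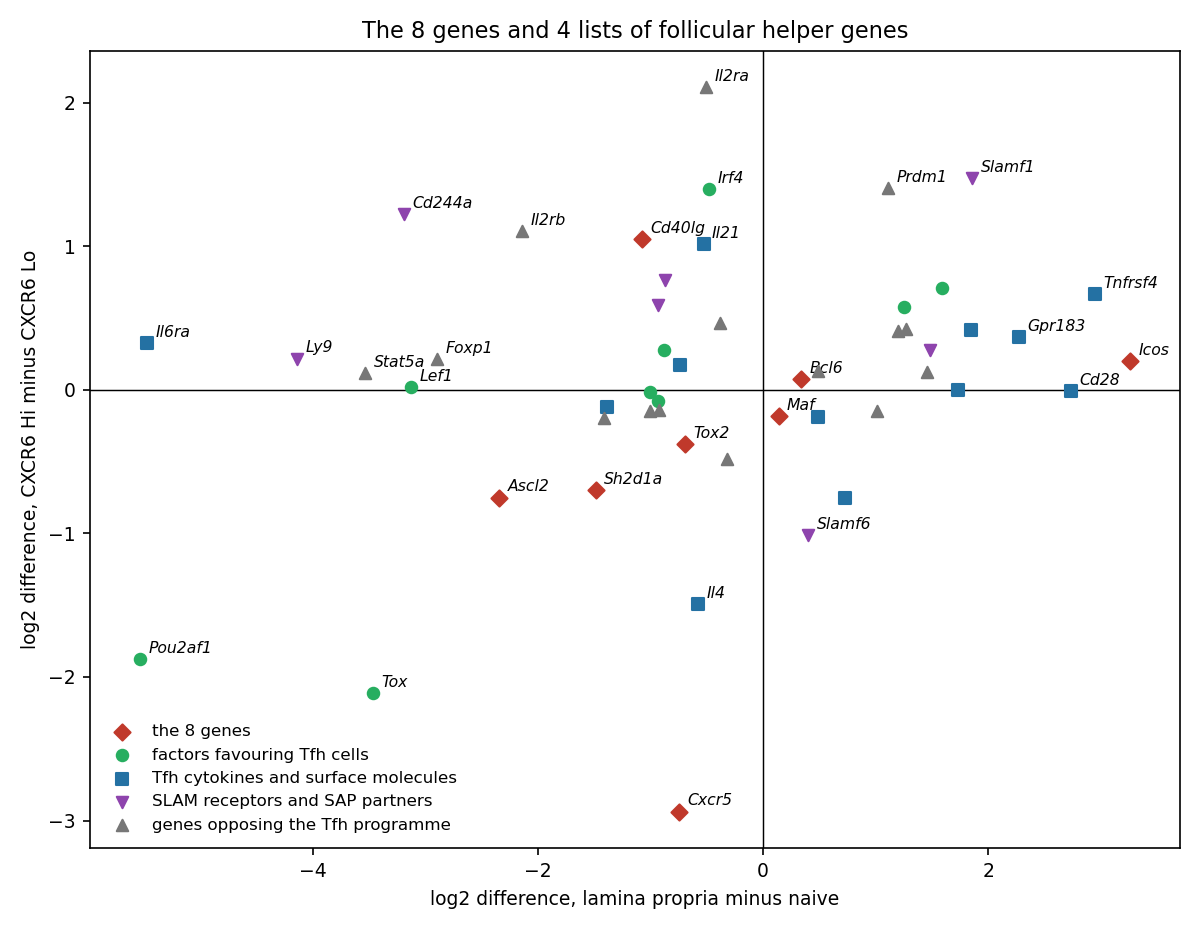
Log2 difference between LP and naive T cells (horizontal) against that between CXCR6 Hi and CXCR6 Lo cells (vertical) for the 8 genes (red diamonds) and the 43 measured genes of the lists. Names mark the 8 genes and those far from either axis, and the axes share the LP arrays. Cxcr5 lies lowest, at -2.94, and Il2ra highest, at 2.11, while Icos lies farthest right at 3.26.

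Between the subsets 0 of these 43 genes passed in limma's fit. Unadjusted p-values were under 0.05 for 5 of them, against 6.55% of all genes. Prdm1, whose product BLIMP-1 represses Bcl6 and Cxcr5, read 27.5 and 25.2 in CXCR6 Hi cells, 10.4 and 9.49 in CXCR6 Lo cells and 7.49 in naive T cells (log2 difference between the subsets 1.41, unadjusted p = 0.00408, adjusted p = 0.551). It rose against naive T cells in CXCR6 Hi cells by 1.81 (adjusted p = 0.0252, a call lost without any 1 LP array), and in CXCR6 Lo cells its difference was 0.41 (adjusted p = 0.316). Prdm1 and Cxcr5 thus stood in opposite order in the subsets. Both CXCR6 Hi arrays lay above both CXCR6 Lo arrays in 25.1% of all genes and below them in 14.3%. Bcl6 differed by 0.07 in its main probe set and by 0.98 in its dim one. A link among these genes was not tested.

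Il2ra, encoding the interleukin 2 receptor chain CD25, read 12.3 and 17.2 in CXCR6 Hi cells and 3.58 and 3.18 in CXCR6 Lo cells, around a naive value of 9.96 (log2 difference between the subsets 2.11, limma's unadjusted p = 0.00233, adjusted p = 0.525). The transferred cells had been sorted as CD25-, and whether CD25 was part of the LP gate of these samples is not stated. Slamf6, encoding the SLAM receptor Ly108, read 22.6 and 24.3 in CXCR6 Hi cells, 49.8 and 44.6 in CXCR6 Lo cells and 25.2 in naive T cells (log2 difference between the subsets -1.01, unadjusted p = 0.0124, adjusted p = 0.646). Slamf1 was higher in CXCR6 Hi cells by 1.47 (unadjusted p = 0.0346, adjusted p = 0.719) and Il4 lower (log2 difference -1.49, unadjusted p = 0.0295, adjusted p = 0.708), the latter at signals of 0.512 to 2.26. Il2ra was the only one of these with CXCR6 Hi arrays above and CXCR6 Lo arrays below the naive array, as in 1.64% of all genes.

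**Figure D4:**
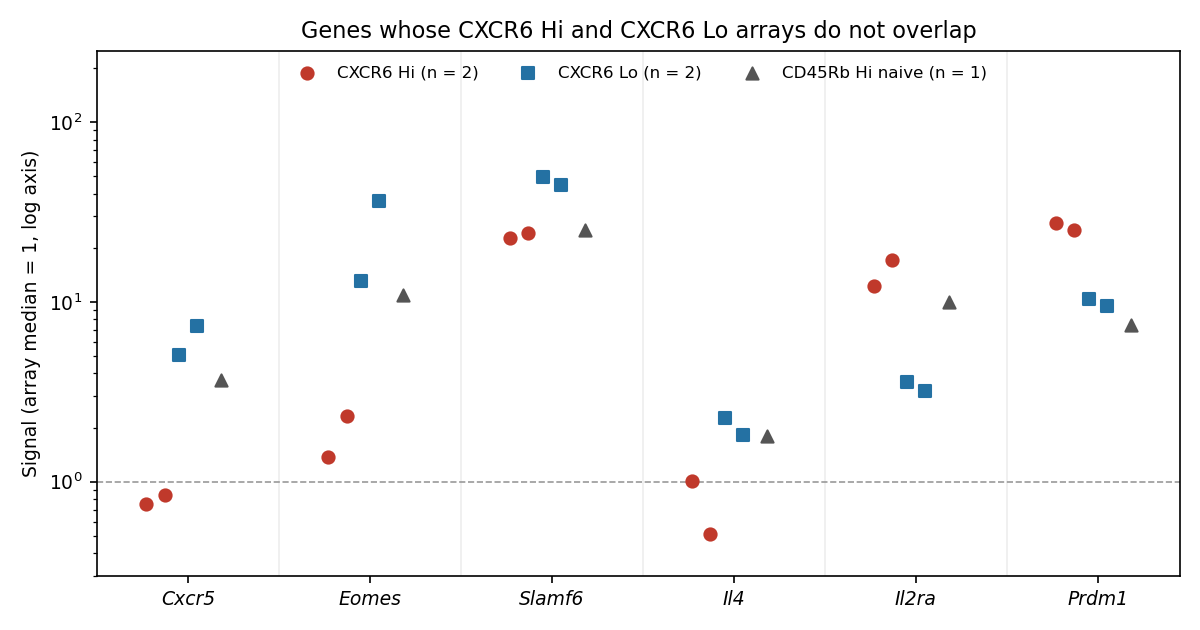
Signal on each array, on a log axis, for Cxcr5, its nearest gene Eomes, and 4 of the 5 list genes at an unadjusted p under 0.05 between the subsets, chosen by these values. Symbols are those of the plot of the 8 genes, and the dashed line is the array median. CXCR6 Hi arrays lie below CXCR6 Lo arrays for the first 4 genes and above them for Il2ra and Prdm1.

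For the arrays as a whole, Cxcr6 itself read 184.1 and 225.0 in CXCR6 Hi cells, 58.1 and 25.3 in CXCR6 Lo cells and 10.5 in naive T cells, in the order of the labels (log2 difference between the subsets 2.41, limma's adjusted p = 0.626). Among 6 measured T cell markers, Cd3d, Cd3g, Cd4 and Cd2 were higher on both CXCR6 Hi arrays than on both CXCR6 Lo arrays, as were 25.1% of all genes. The summed T cell signal was 500.4 and 537.6 in CXCR6 Hi cells, 413.1 and 343.1 in CXCR6 Lo cells and 490.7 in naive T cells. Against naive T cells 2 of these markers fell in LP T cells and 0 rose (18.8% and 15.1% of all genes). The 2 were Cd3e, from 86.1 to between 23.2 and 25.1 (limma's adjusted p = 0.0176), and Cd3d (adjusted p = 0.0396), in the direction of Sh2d1a. Cd4 also lay below the naive value on all LP arrays. In the other direction, Cd5 (64.7 to 107.5, against 39.1) and Cd2 (91.3 to 154.6, against 79.4) lay above it, and Cd3g lay on both sides. Foxp3, the factor of regulatory T cells, was under 1 on each LP array and at 9.60 in naive T cells, but of the other 3 measured markers of these cells Ikzf4 was higher on all LP arrays (3.84 to 6.14, against 3.35), and Ikzf2 and Il2ra lay on both sides of the naive value. The summed signal of the 4 was 27.1 to 113.3 in LP and 73.7 in naive T cells. Of 4 measured markers of NK and innate lymphoid cells, Ncr1 read 0.1 to 0.685 in LP and 24.9 in naive T cells. Kit went the other way, at 18.9 to 57.6 and 4.69. Gzma (65.5 to 266.4, against 153.5) and Eomes lay on both sides of the naive value. The part of such cells in the naive values was not tested. The naive array stood apart in more than its cells. The Dap poly-A control read 64.6 to 101.8 in LP and 0.194 in naive samples. The BioB hybridization control went the other way, at 5.91 to 7.72 and 21.4. The ratio of the Gapdh 3′ to 5′ probe sets was 2.81 to 6.96 and 1.51. That ratio, a sign of RNA quality, also parted the subsets, at 2.81 and 3.98 in CXCR6 Hi cells and 4.19 and 6.96 in CXCR6 Lo cells. Summed myeloid markers were at 269.6 to 366.5 in LP and 141.3 in naive T cells. Of these 8 markers 5 lay above the naive value on all LP arrays and 3, Cd68, C1qb and Itgam, below it (35% and 40.9% of all genes). Summed epithelial markers were at 31.8 to 59.2 and 11.46, with 6 of 8 above the naive value on all LP arrays and 0 below it. The part of these differences in the comparisons with naive T cells, and of the Gapdh ratio and T cell signal in those of the subsets, was not tested.

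The remaining nearest profiles were close to their gene and are given as a description over the 5 arrays and 9956 genes. Those of Icos were Ppil2 and Pgk1, the latter at 283.5 to 348.9 in LP T cells and 29.6 in naive T cells. Those of Sh2d1a were Lonrf1 and Bag2, those of Tox2 were Pf4 and Afdn, and those of Ascl2 were Meis3 and Chst15. Bcl6 lay nearest to Zfp142 and Lca5, Maf to Zfp677 and Inpp1, and Cd40lg to Trib1 and Pik3r2. The level profiles of Bcl6 and Maf are short (0.35 and 0.25 on the log2 scale), so many genes lie near them.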

How the data were processed

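RNA of 2 CXCR6 Hi, 2 CXCR6 Lo and 1 naive sample was measured on Affymetrix mouse arrays. The intensity values deposited by the authors are linear signals whose median is 1 in every sample. The methods credit them to GeneSpring, the submitters' notes to RMA, and neither states the background correction or any filter. The RNeasy kit differs between methods and labels. Of 45101 probe sets, 34945 carry 1 gene symbol in the platform annotation, 932 carry several, and 34741 of the former matched RefSeq (GRCm38.p6, which also gave the loci and start windows). Windows were found for 3 of the 8 genes.

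The brightest probe set by mean signal represented each of the 18193 genes. Signals were log2 transformed, with 2 zeros set to 0.001. limma 3.58.1 (R 4.3.3) gave two-sided tests from lmFit and eBayes in 1 fit of 3 group means, adjusted by Benjamini-Hochberg across all genes and called at 0.05. It had 2 residual degrees of freedom, and the single naive array was taken to be as variable as the LP samples. On simulated data the mean estimates from the same code lay near the differences put in. How many of those passed the threshold is not reported here. The number of arrays limits the precision, and the dimmer signals vary more: the median log2 difference within a pair of arrays was 0.79 and 0.73 for genes with a mean signal under 1 and 0.24 and 0.19 for those over 4 (CXCR6 Hi and CXCR6 Lo).

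The 8 genes and the lists were chosen with earlier results of these data known. All 8 are named, and of each list at most 4 genes, those with the largest difference between LP and naive T cells, apart from genes stated to have been chosen after their values were seen or for an unadjusted p between the subsets. Some listed genes were not analysed here. Other settings tried were averaging a gene's probe sets, no _s_at and _x_at probe sets, a filter at the 40th percentile, quantile normalization, a variance trend with robust fitting, log2 of the signal plus 1, a floor at 1, a fold of at least 2, a replicate block, each LP array left out in turn, and the methods' t-test. Testing every probe set on its own was added after the values had been seen. Figures were drawn with matplotlib 3.10.9 in Python 3.11.15.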

Additional observations from a re-analysis of the deposited data

Results flagged for a closer look

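Among the 8 genes and the 43 measured list genes, 4 had both CXCR6 Hi arrays on 1 side of the naive array and both CXCR6 Lo arrays on the other. Over all genes 1.22% had CXCR6 Hi below and CXCR6 Lo above the naive array and 1.64% the reverse. In 2 subsets compared with the same naive array, the difference of these effects is the difference between the subsets itself, and in none of the 4 did it pass limma's adjusted threshold. Cxcr5 was below the naive value in CXCR6 Hi cells and above it in CXCR6 Lo cells (log2 difference between the subsets -2.94, adjusted p = 0.451), as were Il4 (-1.49, adjusted p = 0.708) and Slamf6 (-1.01, adjusted p = 0.646). Il2ra took the opposite order (2.11, adjusted p = 0.525). No group had 4 or more arrays, so outlying arrays within a group were not looked for.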

How the results depend on the processing

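Between the subsets 0 genes passed in limma's fit (1191 at an unadjusted p under 0.05), and 1 with the methods' t-test. Between LP and naive T cells 6170 genes passed, and 0 to 1938 with 1 LP array left out. In CXCR6 Hi cells against naive T cells 5201 passed, 34 with the methods' t-test and 0 whichever 1 LP array was left out. In CXCR6 Lo cells 5372 passed, 16 with the t-test and again 0 without 1 array. Whether the replicate numbers 1 and 2, which the subsets share, pair their samples is not stated. The deviations of same-numbered arrays had a correlation of 0.02 across all genes, dim ones included, which does not show that the numbers pair nothing. With them as a replicate block, 3512, 0 and 0 genes passed in these 3 comparisons, Icos kept its call in LP against naive T cells (adjusted p = 0.0407), and Sh2d1a lost it (adjusted p = 0.0769).

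Among the 8 genes, the count that rose in LP T cells was 1, and 0 to 1 without 1 array. The count that fell was 1, but 2 with the mean of probe sets, 0 with quantile normalization, the block or the t-test, and 0 to 0 without 1 array. With a floor at 1 it was again 1, but a different gene, since Sh2d1a lost its call (limma's adjusted p = 0.0562) and Ascl2 gained one (-0.22, adjusted p = 0.000163). That floor leaves no spread among the LP arrays for Ascl2, so its calls there come from the setting and are no evidence of a fall. Ascl2 was also the fall that the mean of probe sets added in LP T cells, from signals under 1 on the LP arrays. In CXCR6 Hi cells the 1 that rose became 0 with the block or the t-test and 0 to 0 without 1 array. There 2 fell, and 3 with the mean of probe sets. The count was 1 with a floor at 1, which was Ascl2 (-0.22, adjusted p = 0.000203) and neither of the 2 (Cxcr5, adjusted p = 0.0662, and Sh2d1a, adjusted p = 0.0518), and 0 with quantile normalization, the block or the t-test, and 0 to 0 without 1 array. In CXCR6 Lo cells the 1 that rose became 0 with the block or the t-test and 0 to 0 without 1 array, and 1 fell where the main fit had 0 with the mean of probe sets, the filter, the variance trend, log2 of the signal plus 1 or a floor at 1. Leaving out an array also leaves only 1 residual degree of freedom.

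The lists' counts between LP and naive T cells moved as well. For the factors they were 2 higher and 6 lower with the filter, the variance trend or log2 of the signal plus 1, and 0 and 3 with the block. For the SLAM list they were 3 and 1 with quantile normalization and 0 and 3 with the mean of probe sets. For the opposing genes they were 5 and 6 with the filter or the trend, 0 and 2 with the block and 1 and 3 with the t-test.

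Signs turned in uncalled differences. Between the subsets, quantile normalization gave -0.14 for Bcl6, the mean of probe sets 0.28 for Ascl2, and leaving out _s_at and _x_at probe sets 2.60 for Ascl2 and 0.29 for Tox2. Without 1 array the range was -0.037 to 0.18 for Bcl6, -0.12 to 2.21 for Cd40lg, -2.20 to 0.70 for Ascl2 and -0.78 to 0.028 for Tox2. Against naive T cells, the mean of probe sets gave -0.79, -1.05 and -0.53 for Maf (LP, CXCR6 Hi, CXCR6 Lo), 0.36, 0.34 and 0.38 for Tox2 and, in CXCR6 Lo cells, -0.20 for Bcl6. Without _s_at and _x_at probe sets Tox2 gave 1.42, 1.57 and 1.27. Quantile normalization gave -0.089 and -0.28 for Maf (LP, CXCR6 Hi) and 0.10 for Tox2 in CXCR6 Lo cells. It moved the median of all genes between LP and naive T cells by 0.22, from -0.14 to 0.08, and the share of rises among called genes from 44.7% to 58.2%, which was 36.5% with the filter and 24.3% with a floor at 1. The causes were not tested. Signals under 1 limit Cd40lg and Ascl2 most, and in CXCR6 Hi cells they also limit the size of the Cxcr5 differences.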
